A study of Caenorhabditis elegans with 2 samples.

Results

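The transcripts of 10 genes of the transforming growth factor beta (TGF-beta) pathways of Caenorhabditis elegans were set side by side in lsm-1(tm3585) mutant L3 larvae and N2 wild-type L3 larvae. The genes comprised ligands, receptors and Smad-pathway proteins of the daf-7 (dauer) and dbl-1 (body size) pathways: daf-7, dbl-1, daf-1, daf-4, daf-8, daf-14, sma-2, sma-3, daf-3 and daf-5. They were taken by name from the deposited table, and all 10 were found among its 46135 genes. The data comprised 1 library of lsm-1(tm3585) mutants (lsm-1 larvae), which had been backcrossed 3 times to N2, and 1 library of N2 animals. Both populations were whole larvae grown for 26 hours at 25 °C after L1 synchronisation, and RNA was depleted of ribosomal RNA. The product of lsm-1 is part of a cytoplasmic ring of Lsm proteins that helps to decap messenger RNAs and so leads them to decay. With 1 library per genotype there is no replicate check, no p-value was computed here, and every difference below is a difference between these 2 libraries.

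In both pathways a secreted ligand brings together a type I and a type II receptor kinase, which then phosphorylate receptor-regulated Smads that act in the nucleus. DAF-7 is secreted by the ASI sensory neurons under favourable conditions and keeps larvae from entering the dauer stage, an arrested alternative to L3. It acts through DAF-1 and DAF-4 and the Smads DAF-8 and DAF-14, which oppose the Co-Smad DAF-3 and its Ski-related partner DAF-5. DBL-1, a BMP-like ligand made in neurons, acts through SMA-6 and DAF-4 and through SMA-2, SMA-3 and SMA-4, chiefly in the epidermis, and promotes growth in body size. The type II receptor DAF-4 serves both pathways.

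Levels are given in FPKM, fragments per kilobase of transcript scaled to library size, so that levels of different genes can be set side by side. Of all genes, 19718 in lsm-1 larvae and 21046 in N2 larvae had an FPKM above 0. The mutated gene lsm-1 had 5.94 FPKM in lsm-1 larvae and 10.2 in N2 larvae, a ratio of 0.581 with a 95% counting interval from 0.315 to 1.05. An FPKM over the whole gene need not show a partial deletion, so this is a weak check of the label. The yolk protein genes vit-1 to vit-6, markers of the adult, stayed below 1 FPKM in both libraries. Counting intervals rest on fragment numbers that were estimated from how low FPKM values are spaced, and they cover counting error only. By that estimate 1 FPKM over 1 kilobase corresponds to about 10.9 fragments in lsm-1 larvae and 8.98 in N2 larvae. Among the 12284 genes above 0 in both libraries and with at least 1 FPKM in either, the median ratio of mutant over wild type was 1.23. This shift belongs to the libraries as a whole, and each ratio below is set against it.

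The daf-7 ligand gene differed most of the 10. The gene (B0412.2, chromosome III) had 9.85 FPKM in lsm-1 larvae and 3.28 in N2 larvae, from about 155 and 42 fragments. The mutant value was 3.0 times the wild-type value, with a 95% counting interval from 2.12 to 4.33. In the authors' deposited table daf-7 was the only one of the 10 past the Cuffdiff test (q = 0.0283), a comparison of the reads of these libraries and not of the genotypes. That test was passed in the higher direction by 2.35% of the 17570 genes with a usable result, and in the lower direction by 1.41%. All 10 genes had a usable result there. The gene model of daf-7 has 1 transcript and overlaps no other annotated gene. Of 3222 genes above 0 in both libraries and in the level range of the measured members, 4.19% had a ratio at least as high. That range of mean levels ran from 2.86 to 6.67 FPKM, and daf-7 lay near its upper end. As daf-7 has the highest ratio of the 10, this share describes its position and is not a test.

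Differences were also taken between log2(FPKM + 1) values, mutant minus wild type, a scale that understates the change of low genes. A gene was called measured where 1 or both libraries reached 1 FPKM. A size rule marked differences of 1 or more, in either direction, on this log2 scale, a factor of 2 in FPKM + 1. A gene with an FPKM ratio above 2 can therefore fall short of it. Of the 10 genes, 9 were measured, and those 9 stood above 1 FPKM in both libraries. By the size rule 1 of the 9, daf-7 with a difference of 1.34, was higher in the mutant, with 0 lower. The same rule marked 13.6% of 14838 measured genes as higher and 12.2% as lower. Where every one of the 4 FPKM columns was above 0, which held for 11804 measured genes, it marked 6.57% as higher and 3.86% as lower. All 9 measured members are in this smaller set. There daf-7 lay at percentile 97.4 of the differences, daf-8 at 92.9 and daf-14 at 91.7. Among all 14838 measured genes, which include genes listed at 0 in 1 library, they lay at 90.5, 86.0 and 85.0. These percentiles describe the position of each gene and are not a test. Applied to centred differences, that is after subtraction of the median difference of measured genes, the rule marked 10.5% as higher and 14.7% as lower, and daf-7 was again the 1 member past it.

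**Figure D1:**
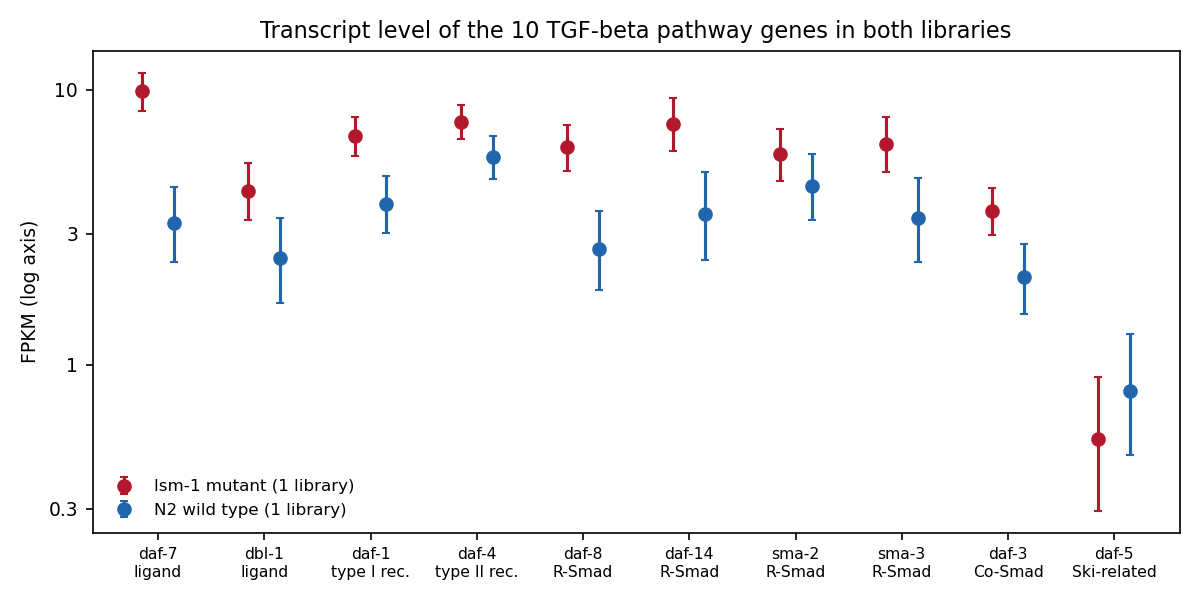
Transcript level in FPKM (log axis) of each of the 10 genes in the lsm-1 mutant library (red) and the N2 wild-type library (blue), with 95% counting intervals of the single library as bars. The bars of the mutant and the wild type are apart for daf-7 (9.85 against 3.28), daf-8, daf-14, daf-1, sma-3 and daf-3, and overlap for dbl-1, daf-4, sma-2 and daf-5.

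The body-size ligand gene dbl-1 (T25F10.2, chromosome V) had 4.30 FPKM in lsm-1 larvae and 2.44 in N2 larvae. Its ratio of 1.76 had a counting interval from 1.15 to 2.75, which holds the median ratio of 1.23. In the authors' deposited table it was not past the test (q = 0.452). The level of daf-7 was 2.29 times that of dbl-1 in lsm-1 larvae and 1.35 times that of dbl-1 in N2 larvae. The counting intervals of the ratios of these ligand genes, mutant over wild type, overlapped.

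The receptor genes lay nearer to the bulk of the genes than daf-7. The type I receptor gene daf-1 (F29C4.1, chromosome IV) had 6.77 FPKM in lsm-1 larvae and 3.85 in N2 larvae, a ratio of 1.76 with an interval from 1.32 to 2.36. The type II receptor gene daf-4 (C05D2.1, chromosome III), used by both pathways, had 7.65 FPKM in lsm-1 larvae and 5.68 in N2 larvae. Its ratio of 1.35 had an interval from 1.07 to 1.70 and so reached below the median ratio. The level of daf-4 was 1.13 times that of daf-1 in lsm-1 larvae and 1.48 times in N2 larvae. The counting intervals of the ratios of both genes, mutant over wild type, overlapped. Neither receptor gene was past the authors' test in the deposited table (q = 0.288 for daf-1 and q = 0.615 for daf-4).

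The receptor-regulated Smad genes of the dauer pathway followed daf-7 in size of difference. The gene daf-8 (R05D11.1, chromosome I) had 6.18 FPKM in lsm-1 larvae and 2.65 in N2 larvae, from about 107 and 38 fragments. Its ratio was 2.34, with an interval from 1.60 to 3.48. The gene daf-14 (F01G10.8, chromosome IV), whose product lacks the DNA-binding domain of other Smads, had 7.52 FPKM in lsm-1 larvae and 3.54 in N2 larvae. Its ratio was 2.12, with an interval from 1.39 to 3.32. Their log2 differences of 0.98 and 0.91 lay just short of the size rule, and neither was past the test in the authors' deposited table (q = 0.167 for daf-8 and q = 0.282 for daf-14).

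The receptor-regulated Smad genes of the body-size pathway lay lower. The gene sma-3 (R13F6.9, chromosome III) had 6.35 FPKM in lsm-1 larvae and 3.42 in N2 larvae, a ratio of 1.86 with an interval from 1.22 to 2.87. The gene sma-2 (ZK370.2, chromosome III) had 5.82 FPKM in lsm-1 larvae and 4.47 in N2 larvae, and the interval of its ratio of 1.30, from 0.914 to 1.86, included 1. The products of these genes act together in 1 complex. The level of sma-2 was 0.916 times that of sma-3 in lsm-1 larvae and 1.31 times in N2 larvae. The counting intervals of these levels overlapped in each library, as did those of the ratios of both genes, mutant over wild type. In the authors' deposited table neither was past the test (q = 0.404 for sma-3 and q = 0.724 for sma-2).

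At the end of the dauer pathway, the Co-Smad gene daf-3 (F25E2.5, chromosome X) had 3.64 FPKM in lsm-1 larvae and 2.08 in N2 larvae. Its ratio was 1.75, with an interval from 1.23 to 2.52. The gene of its partner, daf-5 (W01G7.1, chromosome II), was the 1 member lower in lsm-1 larvae and the 1 member that was not measured, at 0.540 FPKM in lsm-1 larvae and 0.806 in N2 larvae. The values rest on about 14 and 17 fragments. The interval of the ratio, from 0.305 to 1.44, included both 1 and the median ratio. Both daf-3 (q = 0.337) and daf-5 (q = 0.667) missed the threshold in the authors' deposited table. The level of daf-8 was 1.70 times that of daf-3, which it opposes, in lsm-1 larvae and 1.27 times in N2 larvae. The level of daf-14 was 2.07 times that of daf-3 in lsm-1 larvae and 1.70 times in N2 larvae. The counting intervals of the ratios of daf-8 and daf-14, mutant over wild type, each overlapped that of daf-3.

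**Figure D2:**
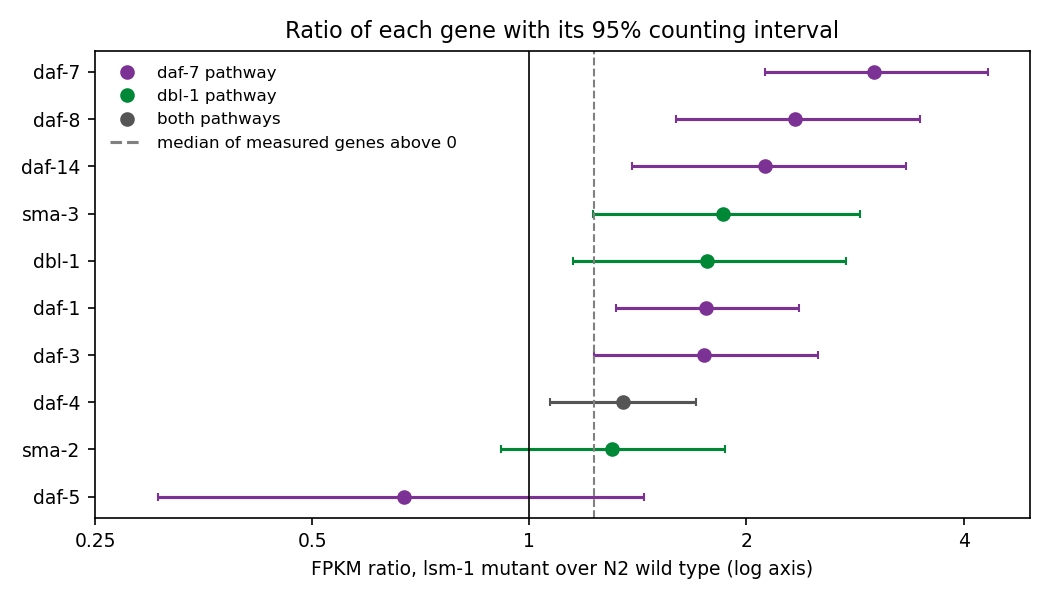
FPKM ratio of the lsm-1 mutant over the N2 wild type (log axis) for each gene, with its 95% counting interval, coloured by pathway. The dashed line marks the median ratio of 1.23 among genes above 0 in both libraries and with at least 1 FPKM in either, and the solid line marks a ratio of 1. The intervals of daf-7, daf-8, daf-14 and daf-1 lie wholly above the dashed line, and that of daf-3 starts at it.

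Of the whole list, 9 of the 10 ratios were above 1 and above the median ratio of 1.23. An FPKM higher in the mutant was found for 64.1% of measured genes. Among the 3222 genes in the level range of the measured members and above 0 in both libraries, the share was 70.9%. Their median ratio was 1.26. For 8 members the counting interval lay above 1. The daf-3 gene, with 9 annotated transcripts between 852 and 3126 bases, and daf-4, with 7 between 1568 and 2714 bases, did so only with longer transcripts. With the shortest transcript the interval started at 0.851 for daf-3 and at 0.990 for daf-4. Intervals were not computed for all measured genes, so the count of 8 has no background share beside it. The intervals of daf-7, daf-8, daf-14 and daf-1 lay above 1.23 with every annotated length. The median difference of measured genes was 0.24. The 9 measured members had centred differences between 0.08 for sma-2 and 1.10 for daf-7, with a median of 0.44. By construction 50% of measured genes have a centred difference above 0. Of the 36 pairs among the 9 measured genes, 34 had overlapping intervals of their ratios. The exceptions were daf-7 with sma-2 and daf-7 with daf-4. This overlap describes counting error and is not a test of the genes against each other.

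The order of levels also differed between the libraries. In the mutant daf-7 had the highest level of the 10, followed by daf-4, daf-14, daf-1, sma-3, daf-8, sma-2, dbl-1, daf-3 and daf-5. In the wild type the order was daf-4, sma-2, daf-1, daf-14, sma-3, daf-7, daf-8, dbl-1, daf-3 and daf-5. In each library 8 of the 9 pairs of neighbours in this order had overlapping counting intervals, and the exception in both was daf-3 above daf-5. Of the summed FPKM of the 10 genes, 58.6 in lsm-1 larvae and 32.2 in N2 larvae, daf-7 made up 16.8% in lsm-1 larvae and 10.2% in N2 larvae. The share of sma-2 was 9.93% in lsm-1 larvae and 13.9% in N2 larvae.

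**Figure D3:**
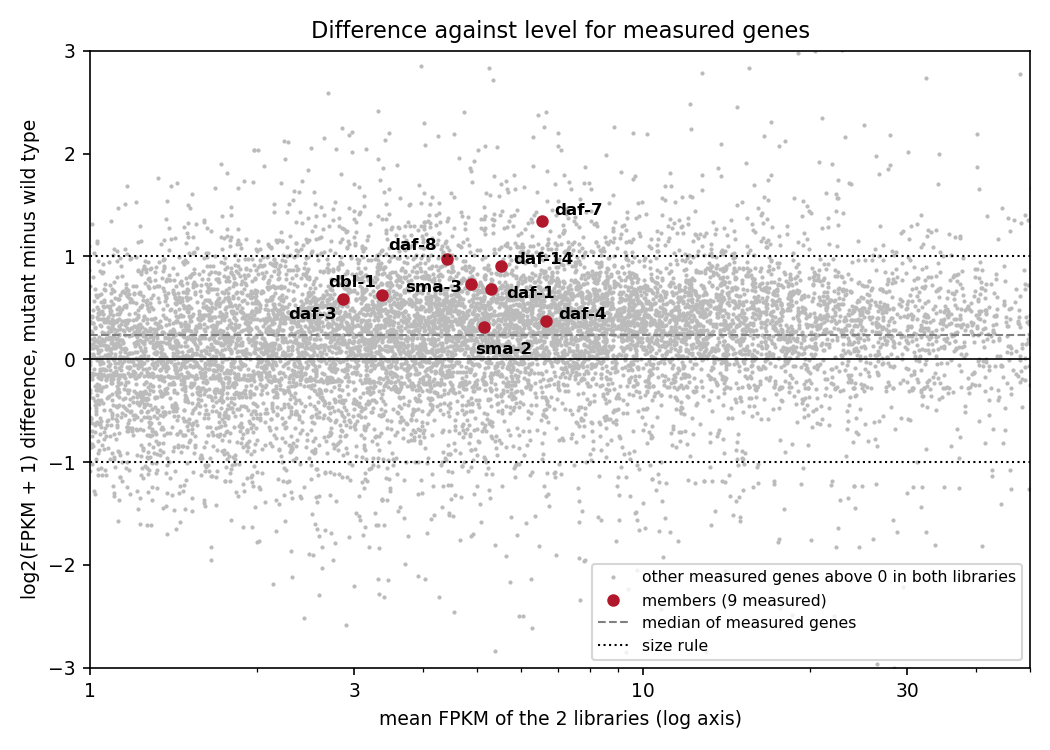
Difference of log2(FPKM + 1), mutant minus wild type, against the mean FPKM of both libraries (log axis) for measured genes above 0 in both libraries (grey) and the 9 measured members (red, named). Genes outside the axis ranges are not drawn. The members lie on or above the dashed median of 0.24, and daf-7 alone lies above the dotted size rule.

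Overlapping genes could add reads to some members, since the sources used here do not say whether fragments were counted by strand. In the Ensembl annotation, daf-14 shares 111 exon bases, 8.73% of its own, with F01G10.9 on the opposite strand, which had 2.77 FPKM in lsm-1 larvae and 0.934 in N2 larvae. The gene sma-2 shares 100 exon bases with aak-1 and 52 with ugtp-1, both on the opposite strand. The aak-1 gene had 2.86 FPKM in lsm-1 larvae and 5.43 in N2 larvae, and ugtp-1 had 8.69 FPKM in lsm-1 larvae and was listed at 0 in N2 larvae. An overlap of 108 exon bases joins daf-1 to col-99, which was listed at 0 in both libraries, and dbl-1 shares 9 bases with T25F10.4. The part of these overlaps in the members' values was not tested. No annotated gene shares exon bases with daf-7, daf-8, sma-3, daf-3, daf-4 or daf-5.

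The remaining TGF-beta ligand, receptor and Smad genes of the worm lay within the size rule. The type I receptor gene sma-6, the partner of daf-4 in the body-size pathway, had 8.02 FPKM in lsm-1 larvae and 6.38 in N2 larvae, a ratio of 1.26 with an interval from 0.983 to 1.61. The Co-Smad gene sma-4 had 9.57 FPKM in lsm-1 larvae and 6.58 in N2 larvae, a ratio of 1.45 with an interval from 1.12 to 1.89. The authors' deposited table gives sma-4 no usable test (status LOWDATA). So of the type I receptor genes, daf-1 of the dauer pathway had the higher ratio and sma-6 of the body-size pathway the lower one, with overlapping intervals.

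Among the other ligands, unc-129, which guides axons from the dorsal muscle, had 8.91 FPKM in lsm-1 larvae and 5.50 in N2 larvae. The ligand gene tig-2 had 3.93 FPKM in lsm-1 larvae and 3.07 in N2 larvae. The ligand gene tig-3 stood below 1 FPKM in both libraries, at 0.147 in lsm-1 larvae and 0.959 in N2 larvae, with about 2 and 11 fragments behind the values and an interval of the ratio from 0.0165 to 0.702. The Smad-related gene tag-68 had the highest ratio of these genes, 2.58 with an interval from 1.52 to 4.57. It had 3.25 FPKM in lsm-1 larvae and 1.26 in N2 larvae. Neither these genes nor sma-6 and sma-4 were past the test in the authors' deposited table.

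Other genes of the body-size pathway were described from a list of 20, which repeats sma-6 and sma-4. It holds extracellular modulators, cofactors and cuticle collagens that shape the body. Of its 18 measured genes, 2 were higher and 1 was lower by the size rule, against 13.6% and 12.2% of all measured genes. The median centred difference was 0.24, and 12 of the 18 lay above the median of measured genes. The gene mab-21, which patterns the male tail, had 8.17 FPKM in lsm-1 larvae and 3.18 in N2 larvae (difference 1.13). The others past the size rule were listed at 0 in 1 library. The gene sma-10, which encodes a transmembrane protein that promotes the pathway, had 4.46 FPKM in lsm-1 larvae and was listed at 0 in N2 larvae, and it was the 1 gene of the list past the authors' deposited test. The tetraspanin gene tsp-14 was listed at 0 in lsm-1 larvae and at 11.6 FPKM in N2 larvae. Values of exactly 0 can come from a failed estimate. The further pair of FPKM columns gave tsp-14 at 10.7 in lsm-1 larvae and 10.1 in N2 larvae, and sma-10 at 0 in both libraries. Both lon-1 and bli-4 were listed at 0 throughout.

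The cuticle collagen genes of that list had somewhat lower FPKM values in lsm-1 larvae. The gene rol-6 had 115.3 FPKM in lsm-1 larvae and 128.96 in N2 larvae, lon-3 had 56.6 FPKM in lsm-1 larvae and 61.6 in N2 larvae, and col-41 had 16.4 FPKM in lsm-1 larvae and 22.3 in N2 larvae. Their log2 differences were -0.16, -0.12 and -0.43. These values lie within the size rule. The counting interval of the ratio of lon-3, from 0.813 to 1.04, included 1. Those of rol-6 (0.821 to 0.975) and col-41 (0.605 to 0.886) lay below 1. In the authors' deposited table the test of col-41 failed, and neither rol-6 nor lon-3 was past it. Among the modulators, the glypican gene lon-2, which restrains DBL-1, had 5.41 FPKM in lsm-1 larvae and 3.29 in N2 larvae. In the further pair lon-2 had 4.74 FPKM in lsm-1 larvae and was listed at 0 in N2 larvae. The authors' deposited table gives the test of lon-2 as failed.

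Other genes of the dauer decision were described from a list of 22, from sensory signalling to the steroid hormone receptor. Of its 13 measured genes, 1 was higher and 0 were lower by the size rule, against 13.6% and 12.2% of all measured genes. The median centred difference was 0.26, or 0.11 with a minimum FPKM of 5 and 0.12 with the further pair, and 11 of the 13 lay above the median of measured genes. The other 9 genes of the list stayed below 1 FPKM in both libraries and are not in these counts. Of these, daf-11, tax-4 and che-2 were lower in lsm-1 larvae, and daf-10, osm-6 and tax-2 were higher. The counting intervals of the ratios of daf-11, tax-4, osm-6 and tax-2 included 1. That of daf-10 lay above 1 (1.14 to 4.55), and for che-2, listed at 0 in lsm-1 larvae, none was computed. The measured gene past the size rule was hen-1, which encodes a secreted neuronal protein. It had 1.06 FPKM in lsm-1 larvae, from about 4 fragments, and was listed at 0 in N2 larvae. In the authors' deposited table hen-1 was not past the test. The intraflagellar transport gene che-2 was below 1 FPKM and was past the authors' deposited test (q = 0.0315), listed at 0 in lsm-1 larvae and at 0.636 FPKM in N2 larvae. The nuclear receptor gene daf-12, on which the dauer pathways converge, had 3.41 FPKM in lsm-1 larvae and 1.54 in N2 larvae. Its difference of 0.80 was short of the size rule, and in the further pair it was listed at 0 in lsm-1 larvae. Of the genes for enzymes that make its ligand, daf-9 had 5.37 FPKM in lsm-1 larvae and 3.99 in N2 larvae, and daf-36 had 2.34 FPKM in lsm-1 larvae and 1.12 in N2 larvae. The genes egl-4, daf-19 and tph-1 were listed at 0 in both libraries.

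Markers of the cells that make the ligands did not all move with daf-7. In whole larvae fewer cells of a type and less RNA per cell cannot be told apart. The 5 genes listed as markers of the ASI neurons (str-3, gpa-4, daf-28, ins-6 and srd-1), some of which other sensory neurons also express, summed to 3.18 FPKM in lsm-1 larvae and 6.26 in N2 larvae, each lower in the mutant, whereas daf-7 was higher there. Of these, ins-6 had 1.41 FPKM in lsm-1 larvae and 2.80 in N2 larvae, daf-28 had 1.17 FPKM in lsm-1 larvae and 1.66 in N2 larvae, and str-3 was listed at 0 in lsm-1 larvae and at 0.657 in N2 larvae. The other markers, gpa-4 and srd-1, stayed below 1 FPKM in both libraries, so the list rests on few fragments. The counting intervals of the ratios included 1 for ins-6 (0.130 to 1.75), daf-28 (0.195 to 2.44), gpa-4 (0.208 to 1.35) and srd-1 (0.00757 to 8.58). For str-3, listed at 0 in lsm-1 larvae, no interval was computed. The lower values of these markers are thus not resolved by the counts. For the 6 markers of ciliated sensory neurons the sum was 16.98 FPKM in lsm-1 larvae and 14.02 in N2 larvae. Most of it came from odr-4, and without that gene the sums were 3.15 FPKM in lsm-1 larvae and 3.13 in N2 larvae.

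Markers of neurons as a whole summed to 146 FPKM over 10 genes in lsm-1 larvae and 81.6 in N2 larvae. By the size rule 3 were higher, and these 3 were the genes listed at 0 in N2 larvae, rab-3, sbt-1 and unc-31, and the further pair gave all 3 as 0 in either genotype. Without them the neuron markers summed to 118.4 FPKM in lsm-1 larvae and 81.6 in N2 larvae. Epidermis and seam markers, from the main tissue in which the body-size Smads act, had a median centred difference of 0.74 over 8 genes, with 4 higher by the size rule, against 13.6% of all measured genes. The 4 were elt-1, elt-3, lin-26 and grd-10, and lin-26 was listed at 0 throughout the further pair. The 8 epidermis and seam markers summed to 224 FPKM in lsm-1 larvae and 112 in N2 larvae. The body wall muscle markers had a median centred difference of 0.60 over 5 measured genes, 2 of them higher by the size rule. The pharynx muscle markers had 0.27 over 4 and the intestine markers 0.21 over 5. The intestine markers were split: elt-2 (-0.81) and elt-7 (-0.50) lay below the median of measured genes, and pept-1, act-5 and ifb-2 above it. The part of cell composition in the members' differences was not tested.

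**Figure D4:**
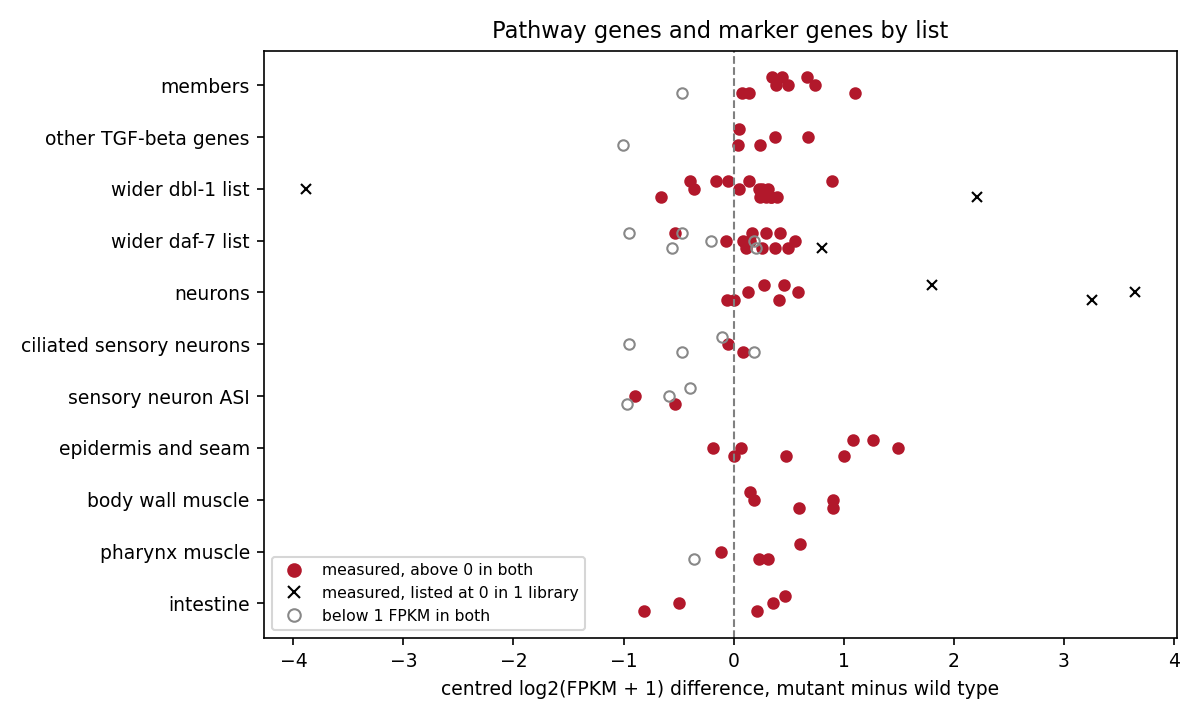
Centred log2(FPKM + 1) difference, mutant minus wild type, of each gene by list (1 symbol per gene, shifted up or down for legibility), where 0 is the median of measured genes. Filled circles are measured genes above 0 in both libraries, crosses are measured genes listed at 0 in 1 library, and open circles are genes below 1 FPKM in both; genes at 0 in both are left out. The 9 measured members lie between 0.08 and 1.10, and all 5 ASI markers, which rest on few fragments, lie left of 0.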

How the data were processed

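RNA of 1 library per genotype was measured. Per the submitters' processing notes, TopHat, Cufflinks and Cuffdiff were used, with no version stated. Coordinates are left out, since neither the genome build nor the annotation is given in the sources used here. For each gene the authors deposited 2 pairs of FPKM values and the p-value, q-value and log2 fold change of their own test. The pair beside the authors' test was used; the further pair was lower by a median factor of 1.14 in both libraries and served as an alternative. The pair used is headed as lsm-1 mutant and control. The control column was taken as the N2 library because N2 is the only other sample, a reading that the header itself does not state; the further pair is headed tm3585 and N2_back3. The members, gene lists and marker lists were chosen with earlier results of these data known.

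Differences were computed in Python 3.11.15 with pandas 2.3.3 and scipy 1.17.1, with a pseudocount of 1. Named genes are the members, the other TGF-beta genes, and wider body-size and dauer list genes past the size rule or the authors' test. Further list genes, marker genes and overlapping genes were named after their values were seen. Not every marker gene past the size rule or the authors' test is named. Transcript lengths came from Ensembl release 115 (WBcel235), matched by name for 40402 of 46135 genes.

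Fragment numbers were estimated from genes with 1 transcript. With 210 bases taken off each length, 19.2% of 1896 values between 0.5 and 8 fragments in the mutant lay within 0.02 of a whole number, against 3.61% for a typical scale. In the wild type the share was 9.57% of 2038 values, against 3.77%. Members with several transcripts used the median length. Intervals of ratios are exact Clopper-Pearson intervals, conditional on the sum of both counts. Those of levels are exact Poisson intervals.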

Additional observations from a re-analysis of the deposited data

How the results depend on the processing

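Across 6 alternatives each, the 60 recomputed differences of the 10 members kept their sign and moved by less than their counting interval, though the 3 choices of genes leave a single difference as it is; daf-7 ranged from 1.20 to 1.56. Members higher by the size rule numbered 3 with a pseudocount of 0.1, which added daf-8 and daf-14, while those of all measured genes numbered 2701 (2362 lower). Without a filter the members' median centred difference was 0.62 in place of 0.44, as the median difference of all genes was then 0.03 in place of 0.24; centred on genes of the same level, a choice made after seeing the data, it was 0.41. The median of the wider body-size list was 0.14 with a minimum FPKM of 5, 0.15 with the further pair and 0.44 without a filter. Its higher genes numbered 1 with a minimum FPKM of 5, 1 with equal sums and 1 among genes above 0 in all 4 columns; its lower genes numbered 0 there and 0 with the further pair. The median of the wider dauer list, 0.26, was 0.11 with a minimum FPKM of 5, 0.12 with the further pair, 0.16 where all 4 columns were above 0 and 0.37 without a filter. That list had 0 higher genes with a minimum FPKM of 5, 0 with equal sums, 0 with the further pair, 0 where all 4 columns were above 0, 4 with a pseudocount of 0.1, and 1 lower gene with the further pair. With a minimum FPKM of 5, 1297 of 8083 measured genes were higher and 901 lower. Of the 11804 genes above 0 in all 4 columns, 775 were higher and 456 lower. The measured genes of the wider body-size list numbered 14 with a minimum FPKM of 5, 14 with all 4 columns above 0 and 16 with the further pair. For the wider dauer list these numbers were 6, 11 and 12. With centring, 1558 of 14838 measured genes were higher and 2175 lower, in place of 2011 and 1817. There daf-7 was still the 1 member past the rule. Beyond fewer genes and values of 0, the cause of these shifts was not tested. No paired analysis was possible because there is 1 library per genotype. The counting interval of daf-5, from about 14 and 17 fragments, did not resolve its difference.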
